A study of Mus musculus with 17 samples.

Results

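The cytosolic ribosomal protein genes encode the proteins of the ribosome outside mitochondria. They were taken from the mouse gene table by their symbols, Rpl or Rps with a number (with a or x where the symbol has it) and Rpsa, Rplp0, Rplp1 and Rplp2. This gave 76 of 21883 protein-coding genes, 46 of the large subunit and 30 of the small subunit. All 76 were followed in CUT&RUN peak lists of urothelium peeled from mouse bladders, made with antibodies against STAG2 (a cohesin subunit), LIN54 (the part of the DREAM complex that touches DNA through its MuvB core) or p130 (a pocket protein of DREAM, encoded by Rbl2). The animals were Stag2-WT (WT) or Stag2-KO (KO), and the tissue of both genotypes was taken 1 week after TMX induction, so the controls had the treatment too. The labels do not name the Cre driver, the age or sex of the animals, or how many were pooled for the approximately 500000 cells of a condition. For STAG2, each genotype had 2 libraries. For LIN54 there were 3 from WT and 2 from KO animals, and p130 had 3 of each genotype, all numbered as biological replicates. Batch 1 held every STAG2 and LIN54 library, batch 2 held p130-WT replicate 1, and batch 3 held the other 5 p130 libraries.

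Each ribosome needs a copy of nearly every ribosomal protein, and a cell makes them in matched amounts from genes scattered over the chromosomes. These genes are among the most strongly transcribed in growing cells, their promoters are mostly rich in CG, and many of their transcripts begin with a C and a run of pyrimidines that puts their translation under the control of the mTOR kinase. DREAM represses cell cycle genes in resting cells, where LIN54 contacts the CHR element TTTGAA and E2F4 with p130 contacts E2F sites. Cohesin holds and loops chromosomes and is found at CTCF sites and at active promoters.

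A gene counted as marked in a library when at least 1 of its ends had a peak summit at a distance of up to 500 bp. The value printed for a gene is the authors' fold enrichment at the strongest such summit, the pileup there over the background of that library's peak call. Whether a control library entered that background is not given. Folds were used to describe and rank peaks within a library and were not tested between libraries. The deposited lists reach down to p 0.05, so a second count took only peaks at q 0.01. A library held 286079 to 539191 peaks, of which 316 to 25859 reached q 0.01, and its recovered background coverage was 1.28 to 2.03 fragments per base. Of 19 urothelial marker genes, 4 to 16 were marked per library in the deposited lists and 0 to 9 at q 0.01, and none reached q 0.01 in 7 libraries, LIN54-WT replicate 3 and all 6 p130 libraries. At q 0.01, none of 5 endothelial markers was marked in any library, and at most 3 of 6 fibroblast, 1 of 5 smooth muscle and 1 of 6 immune markers. A peak at a marker gene's end does not measure its RNA, so these counts check the tissue only in part.

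The promoters below come from 7 of the 9 genes that were marked at q 0.01 in every LIN54 library, with Rplp2, which was strong with LIN54 in WT and holds a CHR element, and Rps24, which reached q 0.01 in no library. Each runs 5′ to 3′ on the gene's strand from 250 bases before the RefSeq transcript start to the tenth base of the transcript (RefSeq, GRCm38.p6). Capitals mark 5 motifs, matched on either strand, and the run of pyrimidines that spans the start. The motifs are the CHR element, an ETS site, a GC box, a TATA box and a YY1-like site, and their letters are given below with the count of each. The counts reach to 50 bases after the start. A YY1-like match in each of Rpl13a and Rpl35a and an ETS match in Rpl39 lie past the stretch shown. The positions are, in the order shown, chr7:24884342-24884601 (plus strand) for Rps19, chrX:74270566-74270825 (plus strand) for Rpl10, chr10:128549159-128549418 (minus strand) for Rpl41, chr7:45128736-45128995 (minus strand) for Rpl13a, chr16:33056203-33056462 (plus strand) for Rpl35a, chrX:37085213-37085472 (minus strand) for Rpl39, chr16:55966025-55966284 (plus strand) for Rpl24, chr7:141447401-141447660 (plus strand) for Rplp2 and chr14:24490428-24490687 (plus strand) for Rps24.
Rps19: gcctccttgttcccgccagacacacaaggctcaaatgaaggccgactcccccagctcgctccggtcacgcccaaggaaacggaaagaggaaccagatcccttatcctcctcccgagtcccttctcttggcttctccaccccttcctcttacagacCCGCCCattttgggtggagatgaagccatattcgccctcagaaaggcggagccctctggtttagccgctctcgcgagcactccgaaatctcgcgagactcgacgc
Rpl10: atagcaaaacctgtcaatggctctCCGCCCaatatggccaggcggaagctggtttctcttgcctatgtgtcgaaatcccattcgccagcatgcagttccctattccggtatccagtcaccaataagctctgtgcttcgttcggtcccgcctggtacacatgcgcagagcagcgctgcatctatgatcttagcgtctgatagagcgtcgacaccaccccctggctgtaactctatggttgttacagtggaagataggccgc
Rpl41: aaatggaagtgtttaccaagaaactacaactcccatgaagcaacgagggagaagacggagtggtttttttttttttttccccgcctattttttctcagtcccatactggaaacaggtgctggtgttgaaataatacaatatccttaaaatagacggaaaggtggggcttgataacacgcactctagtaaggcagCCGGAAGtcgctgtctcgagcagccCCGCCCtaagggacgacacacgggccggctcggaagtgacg
Rpl13a: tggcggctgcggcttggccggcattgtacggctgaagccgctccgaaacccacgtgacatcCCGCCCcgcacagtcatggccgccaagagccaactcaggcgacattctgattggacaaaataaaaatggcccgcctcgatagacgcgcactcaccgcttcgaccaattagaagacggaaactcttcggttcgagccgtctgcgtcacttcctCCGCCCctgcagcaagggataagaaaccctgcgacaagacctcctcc
Rpl35a: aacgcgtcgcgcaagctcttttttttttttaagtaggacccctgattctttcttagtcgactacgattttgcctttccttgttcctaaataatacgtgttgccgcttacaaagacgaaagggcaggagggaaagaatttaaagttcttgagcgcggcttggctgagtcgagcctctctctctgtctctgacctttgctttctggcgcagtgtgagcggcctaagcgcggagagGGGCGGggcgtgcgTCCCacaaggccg
Rpl39: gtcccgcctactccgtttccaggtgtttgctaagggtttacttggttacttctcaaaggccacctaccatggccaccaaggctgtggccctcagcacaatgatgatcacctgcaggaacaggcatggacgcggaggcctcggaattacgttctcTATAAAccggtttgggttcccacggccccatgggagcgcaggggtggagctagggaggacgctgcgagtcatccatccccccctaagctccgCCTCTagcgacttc
Rpl24: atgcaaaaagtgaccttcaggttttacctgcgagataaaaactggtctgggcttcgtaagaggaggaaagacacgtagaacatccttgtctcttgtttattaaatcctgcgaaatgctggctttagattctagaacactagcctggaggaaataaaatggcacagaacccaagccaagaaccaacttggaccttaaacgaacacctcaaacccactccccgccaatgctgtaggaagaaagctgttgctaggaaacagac
Rplp2: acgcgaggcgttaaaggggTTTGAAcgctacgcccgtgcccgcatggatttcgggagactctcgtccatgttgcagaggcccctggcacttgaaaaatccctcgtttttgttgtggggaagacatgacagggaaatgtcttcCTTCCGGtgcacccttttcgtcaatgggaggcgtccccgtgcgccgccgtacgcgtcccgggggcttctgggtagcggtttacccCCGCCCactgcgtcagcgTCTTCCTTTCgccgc
Rps24: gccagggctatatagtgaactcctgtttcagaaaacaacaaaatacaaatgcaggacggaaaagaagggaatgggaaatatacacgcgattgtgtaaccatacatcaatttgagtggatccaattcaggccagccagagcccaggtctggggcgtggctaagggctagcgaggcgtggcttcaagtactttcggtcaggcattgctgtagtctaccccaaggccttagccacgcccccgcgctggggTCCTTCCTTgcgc
Of the 56 ribosomal protein genes with a RefSeq promoter in the table, 3 (5.36%) held TTTGAA between 250 bases before and 50 bases after the start, namely Rpl27, Rpl4 and Rplp2, beside 16.6% of 17491 promoters of all genes. The E2F letters TTTCCCGC or TTTGGCGC were found in 0 of the 56, beside 2.10% of all. The ETS letters CCGGAAG were in 22 (39.3%, beside 11.9% of all), and those of the GC box, GGGCGG, were in 33 (58.9%, beside 46.3%). The YY1-like letters AAGATGGC were in 5 (8.93%, beside 3.21%), and the TATA box, TATAAA, was in 6 (10.7%, beside 13.3%). A transcript that starts with C was annotated for 19 (33.9%, beside 13.7% of all), and a pyrimidine run of 8 or more bases over the start for 15 (26.8%, beside 3.48%). Each promoter of the 56 held a median of 21 CG, beside 13 over all promoters. A match is a string of letters and no measured site. The 3 genes with TTTGAA were at q 0.01 in a median of 6 libraries and the 53 without it in 2. With and without the ETS letters the medians were 3 and 2, and the same for the GC box. They were 3 and 3 for the YY1-like letters and 1 and 3 for the TATA box. All 7 genes shown from the LIN54 set lack TTTGAA in this window, and Rpl24 and Rps24 hold none of the motifs searched, apart from the pyrimidine run at the start of Rps24.

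Every one of the 76 genes was marked in at least 4 of the 15 deposited lists, with a median of 12 libraries per gene, beside a median of 6 over all protein-coding genes. At q 0.01 the median was 3 libraries, with a range of 0 to 13, beside a median of 0 over all genes. Large and small subunit genes had the same median of 3. Rps19 had the most, with 13 of 15 libraries at q 0.01, and 8 genes (Rpl17, Rpl19, Rpl22, Rpl38, Rps2, Rps4x, Rps15 and Rps24) reached q 0.01 in none. In the deposited lists, Rps19 was marked in all 15 libraries, as were 1.92% of all genes, and at q 0.01 no ribosomal protein gene was, beside 0.142% of all.

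**Figure D1:**
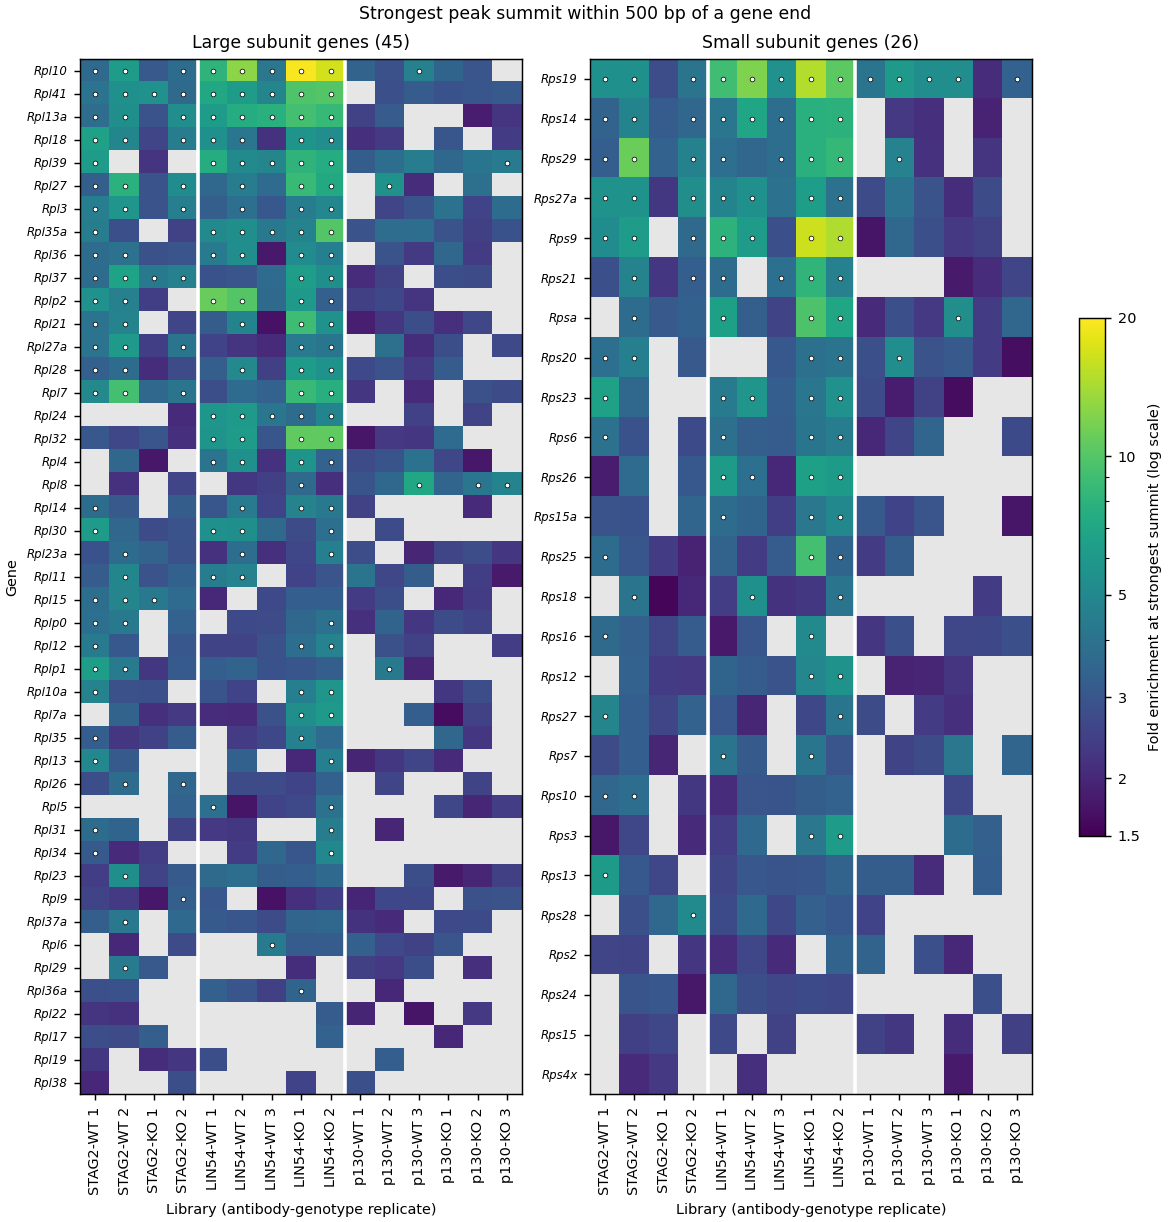
Fold enrichment (log colour scale) at the strongest summit within 500 bp of a gene end, for 45 large and 26 small subunit genes (rows, ordered by the number of libraries at q 0.01) in the 15 libraries (columns). White dots mark peaks at q 0.01 and grey cells have no peak. The dots thin out from the LIN54-KO columns to the p130 columns, and Rps19 carries dots in 13 libraries.

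The STAG2 antibody was used to map cohesin with STAG2 in WT tissue and the signal left in KO tissue. In WT, both libraries marked 58 of the 76 ribosomal protein genes, 36 large and 22 small, beside 35.0% of all genes. At q 0.01 they marked 26, 17 large and 9 small, beside 12.6% of all genes. In KO, both libraries marked 39 genes, 23 large and 16 small, beside 25.5% of all, and 2 at q 0.01, beside 1.89% of all. These 2, Rpl41 and Rpl37 of the large subunit, were marked at q 0.01 in all 4 STAG2 libraries, as were 1.66% of all genes. For Rpl41 this rests on summits at its 3′ end in 3 of the 4, which cannot be told apart from summits of the neighbouring gene Zc3h10. The 5′ end of Rpl37 has the gene Card6 within 1 kb, so its summits cannot be told apart from those of Card6 either.

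Library by library, 43 and 35 of the 76 were marked at q 0.01 in STAG2-WT replicates 1 and 2, and 3 and 20 in STAG2-KO replicates 1 and 2. Both WT counts exceeded both KO counts, and the KO replicates stood far apart. The share of all genes moved the same way, with 29.3% and 17.45% in WT and 2.36% and 9.93% in KO. Divided by that share, the ribosomal protein share was 1.93 and 2.64 times as large in WT and 1.67 and 2.65 times in KO, so on this scale the genotypes overlapped. Without STAG2-KO replicate 1, the KO count is that of replicate 2 alone, 61 genes in the deposited lists and 20 at q 0.01. Without STAG2-WT replicate 2, the WT count at q 0.01 is the 43 of replicate 1. A window of 250 bp in place of 500 bp left 37 genes in both WT libraries in the deposited lists and 17 at q 0.01. No share of all genes is given beside the counts at 250 bp, so they cannot be read against the shares above.

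**Figure D2:**
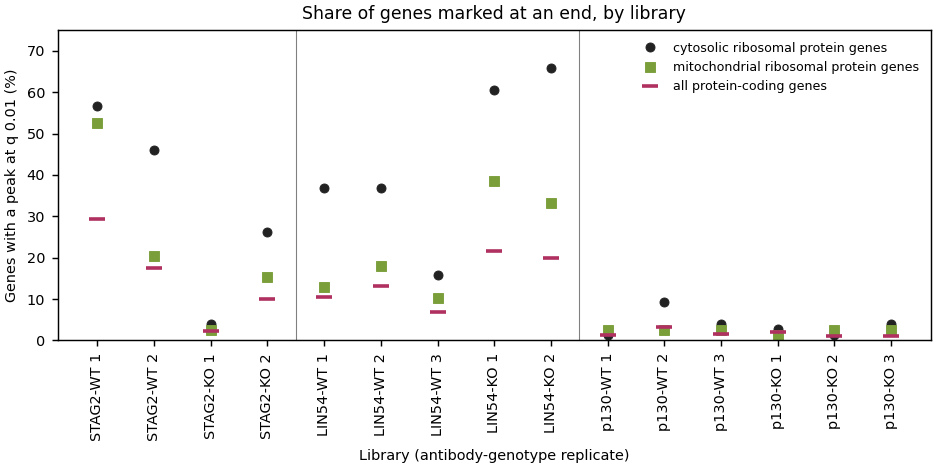
Percent of genes with a peak at q 0.01 at an end, per library (x axis), for the 76 cytosolic ribosomal protein genes (black circles), 78 mitochondrial ribosomal protein genes (green squares) and all 21883 protein-coding genes (bars). The black circles lie between 1.32% and 65.8% and rise and fall with the bars.

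Among large subunit genes, Rpl7 and Rpl18 were near the top of the STAG2 folds in WT by their mean rank over the WT libraries. Rpl7 had folds of 5.06 and 9.25 in WT and 3.58 and 4.06 in KO, and Rpl18 had 6.57 and 4.95 in WT and 2.59 and 4.50 in KO. In both genes every WT fold lay above every KO fold, and the ranking by WT favours that order. The Rpl18 folds come from a gene end 2604 bp from its nearest RefSeq promoter start. Within 500 bp of that start there was no peak in WT replicate 1. The Rpl18 folds there were 3.19 in WT replicate 2 and 2.26 and 3.26 in KO, without that order. Rpl41, the smallest ribosomal protein and a contact between the subunits, had 4.02 and 5.50 in WT and 5.56 and 3.68 in KO, but all of these except the 5.50 of WT replicate 2 come from its 3′ end near Zc3h10. Within 500 bp of the Rpl41 promoter start there was no peak in WT replicate 1, and the folds were 5.50 in WT replicate 2 and 2.37 and 2.73 in KO. Rpl37 reached q 0.01 in all 4 libraries, with 3.74 and 6.76 in WT and 4.28 and 4.63 in KO, and the genotypes overlapped. Its summits at q 0.01 lie at the 5′ end near Card6.

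Among small subunit genes, the best ranked with STAG2 in WT included Rps19, Rps27a and Rps9. Rps19, the gene most often mutated in Diamond-Blackfan anaemia, had folds of 5.50 and 5.53 in WT and 2.78 and 4.07 in KO, with the WT folds above the KO folds. Rps27a, made as a fusion to ubiquitin, had 5.67 and 5.59 in WT and 2.27 and 5.39 in KO, so KO replicate 2 stood close to WT. Rps9, near the mRNA entry, had 5.30 and 6.29 in WT and a single peak of 3.68 in KO, in replicate 2.

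At q 0.01, 9 ribosomal protein genes were marked by both STAG2-WT libraries and by neither KO library, as were 6.19% of all genes. They included Rpl21, Rpl28, Rps10 and Rps20 with all 3 genes of the P stalk (Rplp0, Rplp1 and Rplp2), the arm of the large subunit that binds the elongation factors. Rplp0 had folds of 3.86 and 4.29 in WT and 3.40 in KO replicate 2. Rplp1 had 6.34 and 4.33 in WT and 2.29 and 3.11 in KO. Rplp2 had 5.55 and 4.62 in WT and 2.42 in KO replicate 1. All 9 had a peak in at least 1 deposited KO list, under the q threshold. No ribosomal protein gene was marked in KO alone, beside 0.0320% of all genes. Leaving out WT replicate 1 turned the count of 9 into 16, leaving out WT replicate 2 into 26 and leaving out KO replicate 2 into 23. In the deposited lists, 4 genes were marked in WT alone (Rpl13, Rpl22, Rpl36a and Rps23, beside 6.43% of all), and none in KO alone (beside 2.03%). Without KO replicate 1 the 4 became 10 and without KO replicate 2 they became 20. No share of all genes is given beside the counts with a library left out, so they cannot be read against the shares above.

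A deposited peak in all 4 STAG2 libraries was found at 32 ribosomal protein genes, beside 16.2% of all genes. Among these 32, every KO fold was below every WT fold at 15 (46.9%), beside 54.4% of the 3553 genes of the whole table with such peaks. The reverse order was found at 0 of the 32, beside 3.18% of all.

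LIN54 was mapped to ask where DREAM sits, in the presence and absence of Stag2. All 3 WT libraries marked 50 of the 76 ribosomal protein genes, 29 large and 21 small, beside 23.8% of all genes. At q 0.01 they marked 9, 6 large and 3 small, beside 4.71%. Both KO libraries marked 65, 39 large and 26 small, beside 35.5%, and 40 at q 0.01, 23 large and 17 small, beside 15.8%. The ribosomal protein genes thus had their highest counts at q 0.01 with LIN54 in KO.

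By library, the counts at q 0.01 were 28, 28 and 12 in LIN54-WT replicates 1 to 3 and 46 and 50 in LIN54-KO replicates 1 and 2. Both KO counts lay above the WT counts, and WT replicate 3 was the lowest. Here too all genes moved together, with 2285, 2873 and 1480 of 21883 marked in WT and 4725 and 4376 in KO. The ribosomal protein share was 3.53, 2.81 and 2.34 times the share of all genes in WT and 2.80 and 3.29 times in KO, with overlap. With 20000 best peaks taken from every library, the counts were 37, 38 and 24 in WT and 47 and 55 in KO. The share of all genes moved with them, from 16.4%, 19.1% and 13.9% in WT to 22.8% and 23.1% in KO, and the ribosomal protein share divided by it, 2.97, 2.62 and 2.28 in WT and 2.71 and 3.13 in KO, overlapped. Without WT replicate 3, the 9 genes marked at q 0.01 in every WT library became 21. With the window of 250 bp they became 5, and the 40 of KO became 25. No share of all genes is given beside the 21, 5 and 25, so they cannot be read against the shares above.

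The 9 genes marked at q 0.01 in every LIN54 library of both genotypes, beside 4.58% of all genes, included Rpl10, Rpl13a, Rpl24, Rpl35a, Rpl39, Rpl41 and Rps19. Rps19 (chr7:24884592-24889811) had folds of 9.01, 12.1 and 5.58 in WT and 14.8 and 10.4 in KO. These rest on 47, 52, 22, 103 and 66 fragments at the summit. WT replicate 2 lay between the KO libraries, so the genotypes overlapped. Rpl10 (chrX:74270816-74273135), a late-joining protein needed before the subunits can pair, had 8.08, 12.7 and 4.19 in WT and 19.6 and 16.8 in KO. Both KO folds stood above the WT folds, and 19.6 was its highest value in any library.

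Rpl41 (chr10:128548110-128549168) had LIN54 folds of 7.05, 6.25 and 4.85 in WT and 9.77 and 10.0 in KO. The 10.0 of KO replicate 2 is a 3′ summit, and the fold at the Rpl41 promoter start was 7.39 there. Rpl13a, which also acts outside the ribosome in silencing of inflammatory mRNAs, had 6.25, 7.44 and 7.76 in WT and 9.23 and 8.52 in KO. In both genes the KO folds lay above the WT folds. Rpl39, at the peptide exit tunnel, had 7.47, 5.11 and 4.88 in WT and 8.08 and 7.43 in KO, with KO replicate 2 just under WT replicate 1. Rpl24, whose loss of function causes the belly spot and tail mouse, had 5.88, 6.12 and 4.13 in WT and 3.74 and 4.82 in KO. Its folds overlapped between genotypes. Rpl24 had no STAG2 peak in either WT library.

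Rplp2 was among the 8 best ranked with LIN54 in WT, with folds of 10.9, 10.0 and 3.69 in WT and 6.09 and 3.32 in KO. WT replicates 1 and 2 were above both KO libraries and WT replicate 3 lay between them. Its promoter is one of the 3 with the CHR letters. The other holders were Rpl27, with 3.59, 4.46 and 3.71 in WT and 8.64 and 7.21 in KO, and Rpl4, a protein of the tunnel wall, with 4.04, 5.51 and 2.18 in WT and 5.73 and 3.38 in KO. So the 3 genes with TTTGAA did not share an order of the genotypes. The 5′ end of Rplp2 has the gene Pidd1 within 1 kb, and that of Rpl4 has Zwilch. Summits at these 2 ends cannot be told apart from those of the neighbours.

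**Figure D3:**
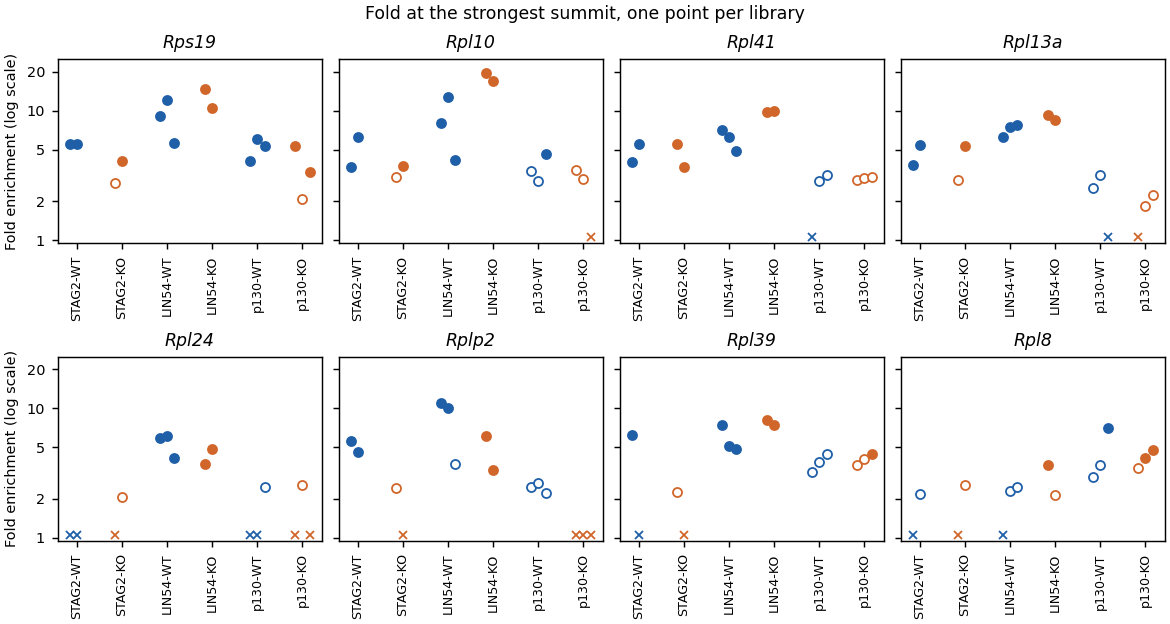
Fold enrichment (log axis) at the strongest summit for 8 ribosomal protein genes, 1 point per library in 6 groups, with WT in blue and KO in orange. Filled points are at q 0.01, open points are in the deposited list only, and crosses at the bottom mark libraries with no peak. Rpl10 reached 19.6 with LIN54 in KO, and Rpl8 had its highest value, 7.02, with p130.

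At q 0.01, 11 genes were marked by both LIN54-KO libraries and by no LIN54-WT library, as were 3.99% of all genes. They included Rpl10a, Rpl12, Rpl37, Rpl7, Rpl7a, Rps12, Rps25 and Rps3. Rpl7 had folds of 2.78, 3.69 and 3.40 in WT and 8.56 and 7.69 in KO, above the other 10 in KO replicate 2. In KO replicate 1 only Rps25 was higher, at 9.22, and it had 3.45 in replicate 2. Rpl7a had 2.08, 2.04 and 2.84 in WT and 5.45 and 6.03 in KO, and Rps3, at the mRNA entry, had 2.40 and 3.63 in 2 WT libraries and 4.19 and 6.24 in KO. At the Rpl7a promoter start the WT folds were 1.76 and 2.04 in replicates 1 and 2, with no peak in replicate 3. None of the 11 was in KO alone in the deposited lists, where 2.04% of all genes were, since each had a weak peak in at least 1 WT library. No ribosomal protein gene was marked in LIN54-WT alone, in the deposited lists (beside 1.38% of all genes) or at q 0.01 (beside 0.0183%). The count of 11 became 17 without KO replicate 1. No share of all genes is given beside the 17, so it cannot be read against the 3.99%.

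A deposited peak in all 5 LIN54 libraries was found at 48 ribosomal protein genes, beside 19.7% of all genes. Of these 48, every KO fold exceeded every WT fold at 27 (56.2%), beside 46.1% of the 4318 genes of the table with such peaks. The opposite order was found at 0 of the 48, beside 2.64% of all. The widest gaps among the 27, from the highest WT to the lowest KO fold, were at Rpl32, with 5.74, 6.25 and 2.99 in WT and 10.6 and 10.7 in KO, and Rps9, with 8.0, 6.19 and 2.84 in WT and 16.4 and 14.7 in KO. The choice of these 2 followed their values.

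At q 0.01, 6 ribosomal protein genes (among them Rpl10, Rpl13a, Rpl41 and Rps19) were marked in every STAG2-WT, LIN54-WT and LIN54-KO library, beside 3.63% of all genes. In every STAG2-WT and LIN54-KO library, 22 were marked, beside 8.52% of all genes. The 22 are 84.6% of the 26 marked by STAG2 in WT and 55.0% of the 40 marked by LIN54 in KO. Over all genes, the 1864 marked by both are 67.8% of the 2749 marked by STAG2 in WT and 54.1% of the 3448 marked by LIN54 in KO, so the second share was close to that of all genes. Strongest summits of the 2 antibodies at the same ribosomal protein gene lay a median of 76 bp apart, beside 58 bp between STAG2 libraries and 52 bp between LIN54 libraries. Over all genes these distances were 71, 66 and 49 bp.

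The p130 lists had few strong peaks. All 3 WT libraries marked 27 of the 76 genes, 16 large and 11 small, beside 14.3% of all genes, and 1 at q 0.01 (Rps19), beside 0.759%. All 3 KO libraries marked 14 genes, 9 large and 5 small, beside 8.88%, and 0 at q 0.01, beside 0.681%. By library, 1, 7 and 3 genes reached q 0.01 in WT and 2, 1 and 3 in KO, so the genotypes overlapped. The shares of all genes at q 0.01 were 1.202%, 3.231% and 1.572% in WT and 2.12%, 1.074% and 1.106% in KO. Divided by these, the ribosomal protein share was 1.095, 2.851 and 2.511 in WT and 1.242, 1.225 and 3.569 in KO. The share was thus near that of all genes in WT replicate 1 and KO replicates 1 and 2, each with 1 or 2 genes. KO replicate 3 marked 27 of the 76 in its deposited list (35.5%), against 46 (60.5%) in each of the other KO libraries. Over all genes the deposited shares were 34.4%, 35.7% and 33.4% in KO replicates 1 to 3. The ribosomal protein share was 1.76, 1.69 and 1.06 times as large, so in KO replicate 3 it was near that of all genes. Leaving out KO replicate 3 raised the 14 to 30. Without WT replicate 1, the only library of batch 2, the 27 became 39, so all libraries left were of batch 3, and Rps19 was still the single gene at q 0.01. A window of 250 bp left 10 genes in WT and 6 in KO, and none at q 0.01. For the counts with a library left out or with this window, no share of all genes is given. They cannot be read against the shares above.

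Rps19 had p130 folds of 4.05, 6.06 and 5.33 in WT and 5.36, 2.09 and 3.38 in KO, on 17 to 35 fragments. It reached q 0.01 in all but KO replicate 2, where q was 0.745, and the genotypes overlapped. All 6 p130 lists had a peak at 7 ribosomal protein genes (among them Rpl8, Rpl35a, Rpl39, Rps19 and Rps20), beside 3.83% of all genes. KO folds that all lay below the WT folds were found at 1 of the 7, beside 8.95% of the 838 genes of the table with such peaks, and the opposite order at 0 of the 7, beside 6.44%.

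Rpl8, next to the peptidyl transferase centre, had 2.95, 3.61 and 7.02 with p130 in WT and 3.48, 4.15 and 4.78 in KO, and at most 3.67 with STAG2 or LIN54. Its 4 peaks at q 0.01 were 3 of p130 and 1 of LIN54-KO. Rpl39 had 3.22, 3.83 and 4.44 in WT and 3.62, 4.09 and 4.40 in KO, and Rpl35a, a Diamond-Blackfan gene, had 2.91, 3.78 and 3.81 in WT and 2.92, 2.44 and 2.87 in KO. The 3.81, 2.92 and 2.87 of Rpl35a come from its 3′ end. At its promoter start the folds were 2.91, 3.78 and 2.35 in WT and 2.44 in KO replicate 2, with no peak in the other KO libraries. Rps20 had 2.84, 5.36 and 2.91 in WT and 3.10, 2.38 and 1.65 in KO. The groups overlapped in all 4 genes. Rpl10 had 3.42, 2.84 and 4.64 in WT and 3.46 and 2.96 in 2 KO libraries, and Rps27a had 2.71, 4.04 and 2.91 in WT and 2.12 and 2.70 in 2 KO libraries. In the deposited lists, Rplp2 was marked in p130-WT alone, as were 2.42% of all genes, and Rpl5 and Rps21 in p130-KO alone, as were 0.855%. With single libraries left out these counts ran from 1 to 6 and from 2 to 5. At q 0.01 no ribosomal protein gene was marked by p130 in WT alone (beside 0.0228% of all genes), in KO alone (beside 0.00457%) or in all 6 libraries (beside 0.512%). The largest deposited count, 6 in WT alone, came without KO replicate 1, and 5 in KO alone came without KO replicate 3. No share of all genes is given beside the counts with a library left out.

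Between genotypes, exact two-sided permutation tests of the number of libraries in which a gene was marked have a smallest possible p of 0.333 for STAG2, and of 0.1 for each of the other antibodies. With Benjamini-Hochberg adjustment over 21883 genes, 0 genes passed 0.05 for any antibody, in the deposited lists or at q 0.01, and 0 had an unadjusted exact p under 0.05. The design is too small for this test to call any gene, so the counts above are descriptions. Labels call the replicates biological, and nothing gives the number of animals behind them.

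The large subunit genes can be ordered by the number of libraries at q 0.01. Rpl41 and Rpl10 had 9 of 15, Rpl13a had 8, and Rpl18, Rpl39 and Rpl27 had 7. At its promoter start alone, Rpl41 had 6. Rpl3, Rpl35a, Rpl37, Rpl36 and Rplp2 had 6, and Rpl7, Rpl21, Rpl28, Rpl27a and Rpl24 had 5. Of these, Rpl3 lies beside the peptidyl transferase centre. Rpl32, Rpl4, Rpl8, Rpl14 and Rpl30 had 4. Rpl23a, Rpl11, Rplp0, Rpl15, Rpl12, Rplp1 and Rpl10a had 3, and Rpl7a, Rpl35, Rpl5, Rpl13, Rpl26, Rpl31 and Rpl34 had 2. Rpl5 and Rpl11, which bind 5S RNA and can hold MDM2 when ribosome assembly fails, were thus in the lower part of the order. Rpl9, Rpl23, Rpl37a, Rpl6, Rpl29 and Rpl36a had 1, and Rpl22, Rpl19, Rpl17 and Rpl38 had 0.

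In the small subunit, Rps19 had 13 of 15, Rps29 and Rps14 had 8, Rps27a and Rps9 had 7, and Rps21 had 6. Rps14 is the gene lost in the 5q minus syndrome. Rpsa, Rps20 and Rps23 had 5, and Rps6 and Rps26 had 4. Rps6 is the substrate of the S6 kinases, and Rps23 sits in the decoding centre. Rps15a, Rps25 and Rps18 had 3. Rps16, Rps27, Rps12, Rps7, Rps3 and Rps10 had 2, Rps13 and Rps28 had 1, and Rps2, Rps24, Rps15 and Rps4x had 0.

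A few peaks stood apart within a gene. Rps29, a zinc-binding protein of the small subunit, had STAG2 folds of 3.26 and 11.1 in WT, and 11.1 was the highest STAG2 value of any ribosomal protein gene. Rpsa, which also serves as a laminin receptor, had LIN54 folds of 6.52, 3.27 and 2.55 in WT and 9.72 and 6.87 in KO, and a p130 peak at q 0.01 in KO replicate 1, with a fold of 5.42. The 2.55 is not at the Rpsa promoter start, where the LIN54 fold in WT replicate 3 was 2.19. Rps26 had 6.13, 3.87 and 2.02 with LIN54 in WT and 6.51 and 6.17 in KO, and no p130 peak in any of the 6 libraries. Rpl34 also had none. The genes of this paragraph were picked with their values in view.

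The 5 genes marked in the fewest deposited lists were Rpl38 and Rps4x (4 libraries each), Rpl17 and Rpl19 (5 each) and Rpl22 (6). Rpl38, whose loss gives the tail short mouse, had folds of 2.02 in STAG2-WT replicate 1, 2.81 in STAG2-KO replicate 2, 2.52 in LIN54-KO replicate 1 and 2.84 in p130-WT replicate 1. Rps4x had 2.07 in STAG2-WT replicate 2, 2.30 in STAG2-KO replicate 1, 2.13 in LIN54-WT replicate 2 and 1.81 in p130-KO replicate 1. No fold of the 5 genes exceeded 3.39, and none reached q 0.01. At Rps4x the 4 summits held 4 to 6 fragments each, so its empty libraries say only that a peak was not detectable at this depth.

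Some of these low counts depended on where the gene was taken to start. The RefSeq promoter start nearest to a gene end lay 762 bp inside the gene for Rpl38, 4707 bp for Rpl19, 1942 bp for Rps2 and 2604 bp for Rpl18, and Rpl22 had its start at the gene end and another inside the gene. With summits within 500 bp of any promoter start, Rps2 was marked at q 0.01 in 6 libraries in place of 0, Rpl38 in 4, Rpl19 in 3 and Rpl22 in 2. Rpl19, whose folds were 5.65 and 5.92 in LIN54-KO at that start, had no LIN54-KO peak at its gene ends. Rpl18 went the other way, from 7 libraries to 1. Over the 56 genes with a promoter entry, the genes marked at q 0.01 in every library went from 14 to 13 in STAG2-WT, from 2 to 1 in STAG2-KO, from 28 to 30 in LIN54-KO, and were 7 in LIN54-WT, 1 in p130-WT and 0 in p130-KO either way. Beside these, 13.8%, 2.14%, 17.9%, 5.36%, 0.846% and 0.732% of all 17491 genes with an entry were so marked by promoter start.

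Of the 4 X-linked genes, Rpl10 and Rpl39 were strong in LIN54 lists, Rpl36a reached q 0.01 in LIN54-KO replicate 1 alone, and Rps4x in none. Rpl39 had STAG2 folds of 6.20 in WT replicate 1 and 2.25 in KO replicate 1, with no peak in the other STAG2 libraries. Rpl36a had STAG2 folds of 2.83 and 2.88 in WT and none in KO, and LIN54 folds of 3.32, 2.98 and 2.44 in WT and 3.46 in KO replicate 1. The share of a library's peaks that lie on the X chromosome varied in the same libraries. It was 1.00% and 2.42% in STAG2-WT, 0.436% and 0.259% in STAG2-KO, 5.09%, 4.17% and 3.16% in LIN54-WT and 0.486% and 0.744% in LIN54-KO. In p130 it was 5.98% in WT replicate 1 and 0.310% to 0.465% in the other 5. In LIN54-KO, Rpl10 had its highest folds, Rpl36a had no peak in replicate 2 and Rps4x had none in either library. The part of the X share in the X-linked values was not tested.

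Where the strand is known from a promoter entry, the strongest summits at q 0.01 lay almost all at the 5′ end. This held for 49 of 50 in STAG2-WT, 14 of 16 in STAG2-KO, 46 of 47 in LIN54-WT and 66 of 67 in LIN54-KO, or 98.0%, 87.5%, 97.9% and 98.5%. Over all genes, 94.9% to 97.2% of the summits at q 0.01 in the 6 groups did so. All 9 of the p130 summits lay there too. With negative values upstream, the median position relative to the start was -95 bp in STAG2-WT, -147 bp in LIN54-WT and -134.5 bp in LIN54-KO. All 3 were farther upstream than over all genes, at -52, -89 and -74 bp. The position relative to the start differed between genes. Rps19 summits at q 0.01 had a median of -302 bp and a range of -481 to -137 bp over 13 libraries, and those of Rpl10 a median of -313 bp and a range of -368 to -233 bp over 9. Both medians lie upstream of the promoter sequences shown, which begin at -250 bp, and some single summits lie inside them. Those of Rps9 lay 121 bp inside the gene. At Rpl41, 4 of 9 strongest summits were at the 3′ end, which has the gene Zc3h10 within 1 kb. A summit there cannot be told apart from one at the neighbour.

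**Figure D4:**
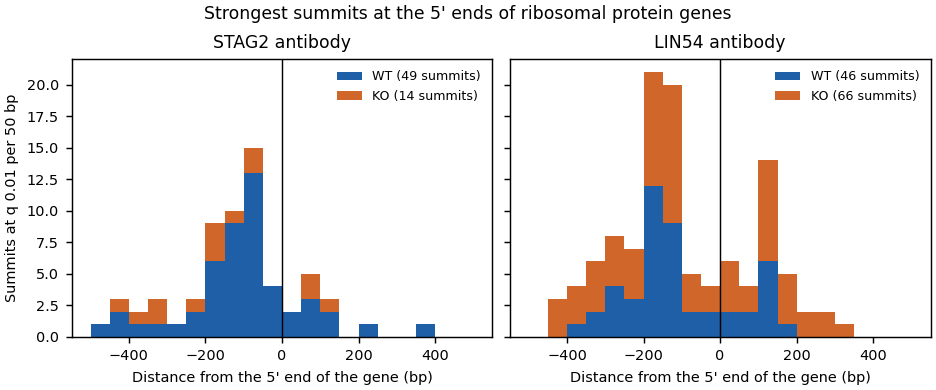
Position of strongest summits at q 0.01 relative to the 5′ end of the gene (x axis, bp, negative is upstream) for ribosomal protein genes of known strand, as stacked bars of 50 bp (y axis, number of summits) with WT in blue and KO in orange on top. STAG2 is on the left (49 and 14 summits) and LIN54 on the right (46 and 66), and in both panels the tallest bars lie upstream of the start.

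Ribosomal protein genes are short, with a median length of 3169.5 bp beside 17170 bp over all genes, and often carry snoRNA genes in their introns. The 29 that host snoRNAs (58 in all) were marked at q 0.01 in a median of 4 libraries and the 47 others in 3. Another gene ends within 1 kb of 28 of the genes, and these and the other 48 had the same median of 3. A summit at such an end cannot be told apart from one of the neighbour. For instance, this holds for the 5′ ends of Rpl35a (Iqcg) and Rps25 (Trappc4) and both ends of Rps27a (Mtif2 and Clhc1). In every library of the LIN54 and STAG2 antibodies, peaks at ribosomal protein genes were wider than at all genes, for instance 1502 bp against 1043 bp (medians) in STAG2-WT replicate 1 and 1010 bp against 588 bp in LIN54-KO replicate 1.

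Other genes of protein synthesis were counted in the same way. At q 0.01 in every library, 17 of 33 translation factor genes were marked by STAG2 in WT, 2 by STAG2 in KO, 7 by LIN54 in WT, 20 by LIN54 in KO and 0 by p130. The shares of all genes were 12.6%, 1.89%, 4.71% and 15.8% in the same order, and 0.759% and 0.681% with p130 in WT and KO. The best ranked were Eef1g, Eif3k and Eif3f with STAG2, Eef1b2, Eef2 and Eif4a1 with LIN54, and Eif4b, Eif3m and Eif3a with p130. Eef1b2, a subunit of the exchange factor of elongation factor 1, had LIN54 folds of 12.8, 10.4 and 8.05 in WT and 12.1 and 28.6 in KO, the last above any ribosomal protein gene. Of 30 ribosome biogenesis genes, 6, 1, 1, 12 and 0 were so marked in the same order, led by Rrp9, Nob1 and Fbl, by Rrp9, Ncl and Bysl, and by Nhp2, Rrn3 and Ncl for the 3 antibodies. Rrp9, a protein of the U3 particle that processes rRNA, had STAG2 folds of 8.13 and 16.7 in WT and 4.90 and 7.99 in KO.

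The 78 mitochondrial ribosomal protein genes serve a different ribosome. Of these, 13, 2, 5 and 21 were marked at q 0.01 in every library of STAG2-WT, STAG2-KO, LIN54-WT and LIN54-KO, and 1 in each p130 group, led by Mrps14, Mrpl38 and Mrpl34 with STAG2, Mrps14, Mrps18b and Mrps12 with LIN54, and Mrps12, Mrpl41 and Mrpl40 with p130. Mrps12 had p130 folds of 4.39, 4.13 and 6.57 in WT and 10.6, 4.81 and 8.50 in KO, above Rps19 in 5 of the 6 libraries. The cytosolic genes had a higher share than the mitochondrial genes at q 0.01 in every STAG2 and LIN54 library, for instance 46.1% against 20.5% in STAG2-WT replicate 2 and 65.8% against 33.3% in LIN54-KO replicate 2. In STAG2-WT replicate 1 they were closest, at 56.6% against 52.6%, apart from the low STAG2-KO replicate 1. Against the translation factor genes the order was mostly the other way, and the translation factors had the higher share in 8 of these 9 libraries, for instance 75.8% in STAG2-WT replicate 1 and 48.5% against 36.8% in LIN54-WT replicate 2. With p130 the cytosolic genes had a higher share than the translation factors in all 6 libraries and than the mitochondrial genes in 4 of 6. These p130 shares rest on 1 to 7 cytosolic genes per library. Of 11 ribosomal protein family genes outside the symbol rule, such as Rpl7l1, Rpl3l, Rpl36al, Rps3a1 and Fau, 2 were marked by STAG2 in WT and 6 by LIN54 in KO at q 0.01 in every library, and 0 in the other groups.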

How the data were processed

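The labels list 17 samples. Peak lists of 15 samples were analysed, and 2 pMNase controls were left aside. The tools named in the submitters' processing notes are bcl2fastq, Bowtie2 and MACS2, and the build is mm10, per the submitters' processing notes. Versions, settings and whether a control entered the peak calls are not given in the sources used here. Each deposited peak carries a fold enrichment, a ratio of pileup to the background of its peak call, and −log10 p and −log10 q as deposited. The deposited score was not used.

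Autosomal (1 to 19), X and Y peaks were kept. Genes came from RefSeq (GRCm38.p6, the assembly of mm10), whose table gives no strand. Fragment counts and background coverage were recovered from fold and p. In a regular sample of each library's peaks, without those of high fold, 99.98% to 100.0% gave a whole count within 0.0002 on the log10 scale. The background coverage of a library is a low percentile of the values recovered in this sample. Fragment counts of single genes were accepted at a wider tolerance. A peak that is absent was not detectable at that depth.

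The library was the unit of comparison, by exact permutation tests with Benjamini-Hochberg adjustment over all genes. P-values measure only the spread between these libraries. Members and lists were chosen with earlier results of these data known. Genes were named by rule: per antibody the 8 with the best mean rank in WT, those marked in all libraries at q 0.01, the 5 marked in the fewest libraries, X-linked genes, up to 12 marked in a single genotype, and up to 3 of each other list. Any other gene named was chosen with its values in view. Some genes that enter the counts are not reported here by name. Alternative settings were windows of 250 and 1000 bp, overlap of the peak in place of its summit, −log10 q of 5, the 20000 best peaks, fewer libraries, batch 3 alone, the replicate number as a block, single libraries left out and, added after seeing the data, RefSeq promoter starts.

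Software was Matplotlib 3.10.9, SciPy 1.17.1, pandas 2.3.3, NumPy 2.4.6 and Python 3.11.15. In a test on simulated data, 200 of 200 genes planted among 21883 were recovered. The planted summits lay within the window and past the q threshold. The test thus checks the code and not the sensitivity at the depth of these libraries.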

Additional observations from a re-analysis of the deposited data

Results flagged for a closer look

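The 2 antibodies moved in opposite directions between genotypes. Mean KO minus mean WT, the number of ribosomal protein genes marked at q 0.01 was -27.5 for STAG2 (means of 39.0 and 11.5 in WT and KO) and 25.33 for LIN54 (means of 22.7 and 48.0). Every STAG2-KO library lay below every STAG2-WT library, and every LIN54-KO library above every LIN54-WT library. The difference between the antibodies was not tested. The number of all peaks at q 0.01 moved with it, from 25859 and 13346 in STAG2-WT to 1239 and 6777 in STAG2-KO, and from 4903, 6617 and 2166 in LIN54-WT to 15787 and 13044 in LIN54-KO. Its part in the result was not tested.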

How the results depend on the processing

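In 120 of 188 comparisons with an alternative, a count of marked genes stayed within 1.5 times the value reported. Counts of genes called by the permutation tests are not among these, since they cannot differ from 0 in this design. The counts of genes marked in every library are given below in the order STAG2-WT, STAG2-KO, LIN54-WT, LIN54-KO, p130-WT and p130-KO. With a window of 250 bp they were 37, 24, 29, 42, 10 and 6 in the deposited lists and 17, 1, 5, 25, 0 and 0 at q 0.01, and with 1000 bp the deposited counts of p130 were 41 and 26. With a −log10 q of at least 5 the first 5 groups had 8, 0, 3, 21 and 0. With the 20000 best peaks, STAG2-KO had 12, LIN54-WT 17 and each p130 group 2. When all but one library sufficed, the deposited counts were 72 in STAG2-KO, 52 in p130-WT and 40 in p130-KO. At q 0.01 STAG2-WT then had 52, STAG2-KO 21, LIN54-WT 23 and p130-KO 2. By promoter starts, STAG2-KO had 1 at q 0.01.

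Of genes marked in a single genotype, the deposited counts became 2 for STAG2 in WT alone and 1 for LIN54 in WT alone with 1000 bp, 1 for STAG2 in KO alone with 250 bp, and 0 for p130 in KO alone with either window. At q 0.01 and 250 bp, STAG2 in WT alone became 5 and LIN54 in KO alone 7.

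With each library left out in turn, the deposited counts in every library ran from 50 to 61 in STAG2-KO and from 19 to 30 in p130-KO. At q 0.01 they ran from 35 to 43 in STAG2-WT, from 3 to 20 in STAG2-KO, from 9 to 21 in LIN54-WT and from 0 to 1 in p130-KO. Deposited counts in a single genotype ran from 4 to 20 (STAG2, WT alone), 0 to 6 (STAG2, KO alone), 0 to 1 (LIN54, WT alone), 0 to 2 (LIN54, KO alone), 1 to 6 (p130, WT alone) and 2 to 5 (p130, KO alone). At q 0.01 they ran from 10 to 26, 0 to 2, 0 to 1 and 11 to 17 for the first 4. Leaving a library out relaxes the rule, so each of these counts can only stay or rise, and the ranges do not measure stability. With 2 libraries in a group, a count in every library is then that of the single library left. The cause of the size of each rise was not tested. Shares of all genes are not given beside the counts of this section.

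With the replicate number as a block, 0 genes passed an adjusted exact permutation p of 0.05, as without it, and the smallest exact p was 0.5 for STAG2 and LIN54 and 0.25 for p130. Deviations from the group means of same-numbered libraries correlated at -0.00387 to 0.016 over all genes. The labels tie no number to an animal or day.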
